A study of Mus musculus with 12 samples.

Results

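The genes described here serve thyroid hormone signalling in the brain: the hormone receptors Thra and Thrb, the transporter Slco1c1, the activating deiodinase Dio2 and the hormone-responsive genes Klf9, Hr and Nrgn. They were chosen by name, from known roles in the pathway and with earlier results of these data known, and all 7 were found among the 48709 gene IDs of the count files, matched by Ensembl ID to their GENCODE M21 symbols. All 7 also passed the filter on low counts, which left 16829 genes to test.

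Polyadenylated RNA of dissected hippocampal CA1 tissue was sequenced from 6 libraries of mice with myocardial infarction (MI), made by ligating a coronary artery, and from 6 libraries of sham-operated mice (Sham), which had the surgery without the ligation. The labels give neither strain, genotype, age and sex of the mice nor the time after surgery, and all libraries are labelled as the same tissue. Nor do they state that the libraries of a group stem from different animals, so a p-value reflects only the spread among these libraries, which may in part be technical. The series title names heart failure, memory and gene expression, and the comparison asked here is which of these transcripts differ in CA1 after MI.

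Thyroid hormone reaches the brain mainly as thyroxine, which transporters such as the product of Slco1c1 carry across membranes. The deiodinase encoded by Dio2, found mostly in astrocytes, turns thyroxine into the active hormone triiodothyronine, and the one encoded by Dio3 inactivates it. The receptors bind DNA, usually with a retinoid X receptor, and repress target genes without hormone and activate them with it; the hippocampus is a region known to respond to thyroid hormone.

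The receptors' core binding motif is AGGTCA, and it was looked for before the start sites of the members. RefSeq promoter entries (build GRCm38.p6) were matched for 5 of the 7 members: Slco1c1, Dio2, Thrb, Klf9 and Nrgn. In the 250 bases before each start, on both strands, AGGTCA was found in 1 window of Thrb and in none of the windows of the other members, against 14.0% of 32851 promoters of all genes (4607 promoters). The pair of AGGTCA motifs in the same direction spaced by 4 bases stood in no window of a member and in 0.0152% of all promoters (5 promoters). These matches are descriptions of letters and not binding sites. Shown are the Thrb stretch with its match in capitals, which starts at position -184 from the start site (chr14:17660764-17660793, plus strand), and the upstream stretches of Klf9 (chr19:23140976-23141225, plus strand) and Nrgn (chr9:37552905-37552995, minus strand), the members whose levels moved together across libraries.
Thrb: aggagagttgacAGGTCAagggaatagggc
Klf9: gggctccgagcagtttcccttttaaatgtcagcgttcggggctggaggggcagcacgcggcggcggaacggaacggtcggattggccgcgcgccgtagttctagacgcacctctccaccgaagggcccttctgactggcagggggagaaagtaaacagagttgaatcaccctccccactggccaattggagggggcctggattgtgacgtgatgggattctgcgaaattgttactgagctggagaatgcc
Nrgn: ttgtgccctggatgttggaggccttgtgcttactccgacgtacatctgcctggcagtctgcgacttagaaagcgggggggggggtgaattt

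Library totals ran from 21364928 to 33614313 counts in MI and from 20764133 to 35643127 counts in Sham. More Y-linked than Xist counts were found in the MI libraries numbered 1, 3 and 4 and in the Sham libraries numbered 1, 2 and 3, and more Xist than Y-linked counts in the other 6, which gave each group 3 libraries of each kind, and libraries of both kinds cannot come from 1 animal. The defining markers of CA1 pyramidal neurons were present in all libraries: the summed level of 10 such genes was 1169 to 1528 CPM (counts scaled to library size) in MI and 656 to 1843 CPM in Sham, lowest in Sham 1 and highest in Sham 5. The tissue also held RNA of other cells. Astrocyte markers, 12 genes, summed to 5826 to 7011 CPM in MI and 5769 to 7821 CPM in Sham. The summed level of 10 fibroblast and meningeal markers was 109 to 220 CPM in MI and 91.5 to 417 CPM in Sham, with Sham 1 to Sham 4 above every MI library and Sham 5 and Sham 6 below every MI library.

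None of the 7 members passed the test between MI and Sham. The quasi-likelihood test of edgeR, with Benjamini-Hochberg adjustment over 16829 genes at a threshold of 0.05, called 0 genes in all (0% of those tested; DESeq2 called 11, none of them a member). At an unadjusted p under 0.05 there were 0 members, against 7.55% of all genes tested. In limma-voom with sample weights, 3 of 7 members had an unadjusted p under 0.05 (Nrgn 0.0101, Slco1c1 0.0324 and Klf9 0.0389), against 11% of all genes tested, and 0 passed after adjustment. The log2 fold change, MI minus Sham, was positive for 6 members and negative for 1, with a median of 0.07 over the members and -0.01 over all genes. In 0 of 7 members did the groups fail to overlap, against 0.41% of all genes tested. A p-value that misses the threshold does not show that MI and Sham were alike, and the intervals below say which differences remain possible. In bulk tissue, fewer cells of a type and less RNA per cell cannot be told apart.

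**Figure D1:**
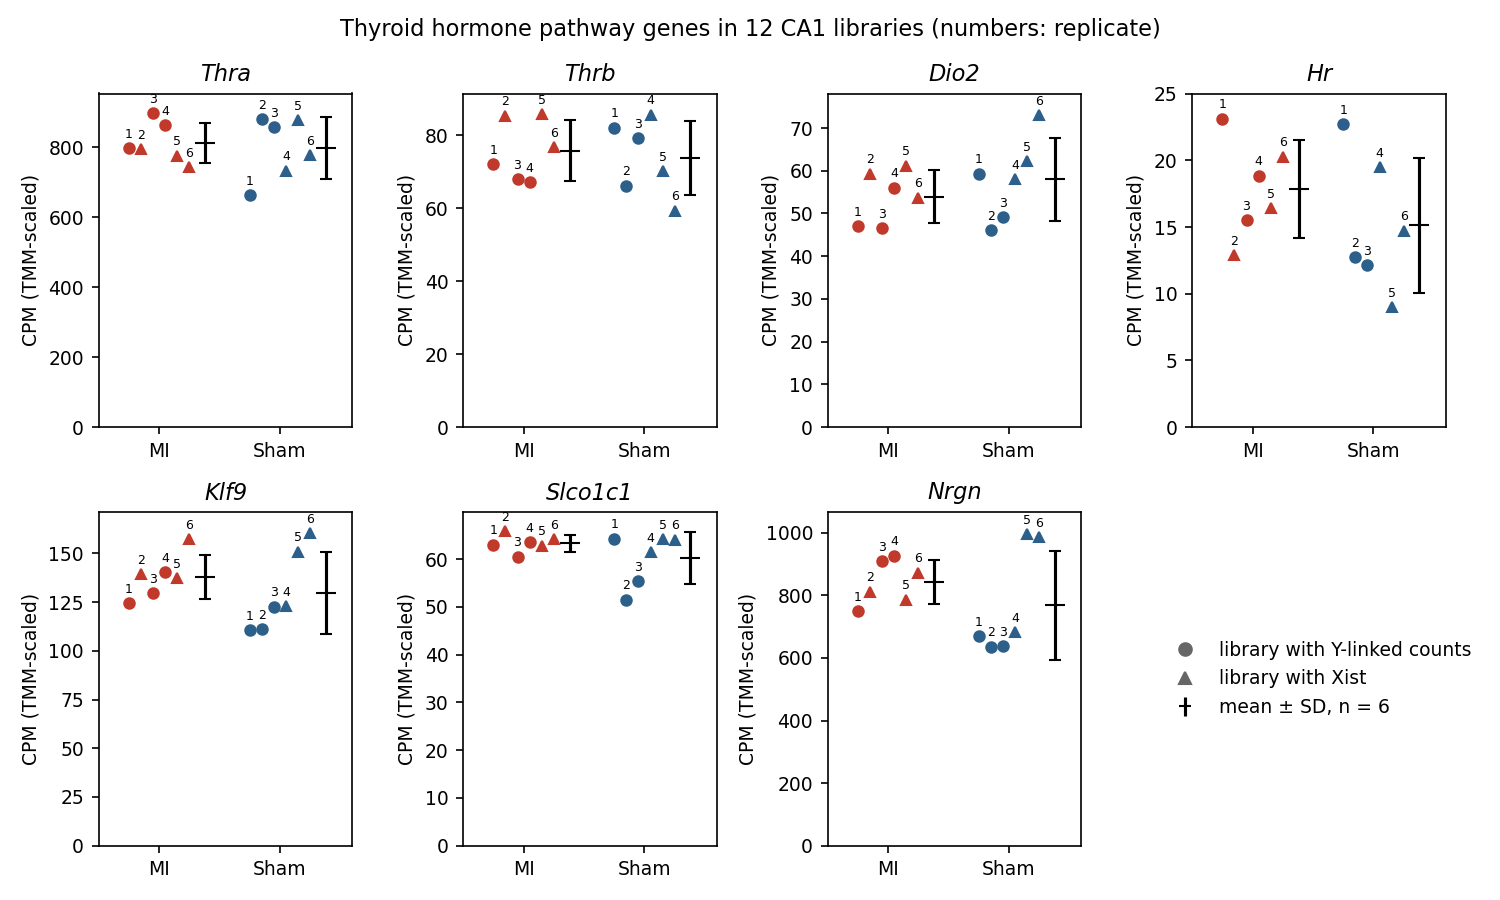
Level of each member gene in CPM (scaled by TMM, y axis from 0) in 6 MI libraries (red) and 6 Sham libraries (blue), with the replicate number beside each point, circles for libraries with Y-linked counts, triangles for libraries with Xist, and the mean ± SD of each group in black. The groups overlap for all 7 genes, and Nrgn in Sham splits into 4 libraries from 636 to 683 CPM and 2 libraries at 986 and 996 CPM.

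Of the transport and activation genes, Slco1c1 encodes a carrier of thyroxine that the brain's endothelium and astrocytes use. The gene (ENSMUSG00000030235) lies on mm10 chr6:141524368-141570177, plus strand. In MI its lowest, median and highest levels were 60.5, 63.3 and 65.8 CPM, and in Sham 51.5, 62.8 and 64.2 CPM. The MI libraries were close together and the groups overlapped: Sham 2 and Sham 3, at 51.5 and 55.4 CPM, lay below all other libraries, and 5 of 6 MI libraries were above the median of Sham. Slco1c1 averaged 63.3 ± 1.74 CPM in MI and 60.1 ± 5.43 CPM in Sham (6 libraries each, SD), a log2 fold change of 0.07 (SE 0.06, 95% interval -0.05 to 0.20) with an adjusted p of 0.799 by edgeR. The summed endothelial marker level, over 12 genes, was 365 to 400.2 CPM in MI and 346 to 409 CPM in Sham, also lowest in Sham 2.

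Dio2 (ENSMUSG00000007682, mm10 chr12:90724552-90738438, minus strand) was the 1 member with a negative log2 fold change. Its lowest, median and highest levels were 46.6, 54.9 and 61.1 CPM in MI, and 46.0, 58.7 and 73.0 CPM in Sham. Sham 5 and Sham 6 lay above all MI libraries and Sham 2 below them. Dio2 averaged 54.0 ± 6.12 CPM in MI and 58.0 ± 9.66 CPM in Sham, a log2 fold change of -0.10 (SE 0.11, 95% interval -0.33 to 0.13) with an adjusted p of 0.872 by edgeR. The log2 fold change was 0.00 when Sham 1 and Sham 6 were left out together. Sums of markers listed for other cells moved with Dio2. The 4 libraries with the lowest Dio2 (MI 1, MI 3, Sham 2 and Sham 3) held the 4 highest sums of ependymal markers, which ran from 195 to 316 CPM in MI and from 138 CPM in Sham 6 to 316 CPM in Sham. Of the 8 ependymal markers 5 passed the filter. Crym, also listed here for hormone transport and binding, averaged 217 CPM in MI and 193 CPM in Sham and made up most of these sums. Sham 6 also held the highest sums of astrocyte markers, 7821 CPM, and of 10 dentate granule cell markers, 1067 CPM, against 146 to 453 CPM in MI and 181 to 299 CPM in the other Sham libraries. The part of these cells in the Dio2 values was not tested.

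The level of Dio2 relative to Slco1c1, which sets activation beside transport within a library, was a log2 ratio of -0.24 ± 0.14 in MI and -0.06 ± 0.13 in Sham (6 libraries each, SD). In MI the ratio ran from -0.42 to -0.04 with a median of -0.22, and in Sham from -0.17 to 0.19 with a median of -0.10, so that the groups overlapped. The difference of -0.17, with 5 of 6 MI libraries below the median of Sham, gave p = 0.0584 in an exact two-sided permutation test over 924 arrangements (0.117 after adjustment over the 2 ratios tested). Leaving out 1 library at a time moved the difference between -0.21 (without MI 5) and -0.12 (without Sham 6, the library with the highest ratio). The exact p, here not adjusted over the 2 ratios, was smallest without MI 5, at 0.0130. Without Sham 3 the difference was -0.20 with an unadjusted exact p of 0.0498.

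The receptor genes were at similar levels in both groups. Thra encodes the receptor form most abundant in brain (ENSMUSG00000058756, mm10 chr11:98740638-98769006, plus strand). In MI its lowest, median and highest levels were 743, 796 and 897 CPM, and in Sham 663, 817 and 879.7 CPM. The groups overlapped, and Sham 1 lay below all other libraries. Thra averaged 812 ± 57.2 CPM in MI and 798 ± 89.1 CPM in Sham, a log2 fold change of 0.02 (SE 0.08, 95% interval -0.14 to 0.19) with an adjusted p of 0.967 by edgeR. Gene counts do not separate the splice forms of Thra, one of which encodes a protein that does not bind the hormone. Its exons share 263 bases, 5.70% of their length, with Nr1d1, a circadian repressor gene on the opposite strand, and as the sources used here do not give the strand setting of the counting, reads there could be credited to either gene. Nr1d1 averaged 99.8 ± 8.30 CPM in MI and 96.2 ± 12.6 CPM in Sham.

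Thrb encodes the second receptor (ENSMUSG00000021779, mm10 chr14:17660261-18038090, plus strand). Its lowest, median and highest levels were 67.0, 74.4 and 85.7 CPM in MI, and 59.3, 74.6 and 85.6 CPM in Sham. The groups overlapped almost fully, with Sham 6 the lowest library. Thrb averaged 75.8 ± 8.29 CPM in MI and 73.7 ± 10.2 CPM in Sham, a log2 fold change of 0.04 (SE 0.09, 95% interval -0.16 to 0.24) with an adjusted p of 0.950 by edgeR. Its sign turned in some alternative fits.

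The log2 ratio of Thrb to Thra within a library was -3.42 ± 0.24 in MI and -3.44 ± 0.32 in Sham (6 libraries each, SD). The difference of 0.02 gave p = 0.922 in an exact two-sided permutation test. Per exon length, the level of Thra was 14.5 to 21.2 times that of Thrb in MI libraries, with a median of 16.7, and 13.0 to 21.4 times in Sham libraries, with a median of 18.8. Per exon length the gene count of Thra, over all its splice forms, was above that of Thrb in all 12 libraries.

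Of the hormone-responsive genes, Klf9 encodes a zinc-finger transcription factor that triiodothyronine and glucocorticoids induce in neurons (ENSMUSG00000033863, mm10 chr19:23141226-23168134, plus strand). In MI its lowest, median and highest levels were 124, 138 and 157 CPM, and in Sham 111, 123 and 160.5 CPM. The MI libraries all lay above the median of Sham. The groups overlapped: Sham 5, at 151 CPM, was above 5 of the 6 MI libraries and Sham 6, at 160.5 CPM, above all of them. Klf9 averaged 138 ± 11.2 CPM in MI and 129.8 ± 20.97 CPM in Sham, a log2 fold change of 0.09 (SE 0.09, 95% interval -0.12 to 0.29) with an adjusted p of 0.877 by edgeR.

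Nrgn encodes neurogranin, a postsynaptic protein that binds calmodulin and is abundant in forebrain pyramidal neurons (ENSMUSG00000053310, mm10 chr9:37544492-37552904, minus strand). Its lowest, median and highest levels were 749, 842 and 927 CPM in MI, and 636, 676 and 996 CPM in Sham. All 6 MI libraries lay above the median of Sham, yet none lay above Sham 5 and Sham 6. Nrgn averaged 843 ± 71.2 CPM in MI and 768 ± 174 CPM in Sham, a log2 fold change of 0.13 (SE 0.13, 95% interval -0.14 to 0.40) with an adjusted p of 0.845 by edgeR.

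Hr encodes a corepressor that the thyroid hormone receptor binds and that the hormone induces in the developing brain (ENSMUSG00000022096, mm10 chr14:70552212-70573548, plus strand). In MI its lowest, median and highest levels were 12.9, 17.6 and 23.1 CPM, and in Sham 8.99, 13.7 and 22.7 CPM. The groups overlapped over most of their range: 5 of 6 MI libraries were above the median of Sham, while Sham 1 and Sham 4 were among the 4 highest libraries. Hr averaged 17.8 ± 3.65 CPM in MI and 15.1 ± 5.07 CPM in Sham, a log2 fold change of 0.24 (SE 0.21, 95% interval -0.21 to 0.70) with an adjusted p of 0.832 by edgeR. It was the largest fold change among the members and the one with the widest interval, and leaving out 1 library moved it between 0.12 (without Sham 5) and 0.39 (without Sham 1).

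In the authors' deposited table of 542 genes higher in MI, Hr was the 1 member listed, with a log2 fold change of 0.42 and an adjusted p of 0.0259. The authors' deposited table of 517 genes lower in MI held 0 members. The sources used here do not say how the authors' deposited tables were made. For Hr the deposited log2 values per library in the authors' deposited table ran from 8.70 to 9.21 in MI and from 8.30 to 8.91 in Sham. These ranges overlap, but less than those of log2 CPM, 3.70 to 4.54 in MI and 3.18 to 4.51 in Sham.

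Between the genes, levels were compared per kilobase of exon (CPM per kilobase). Nrgn was highest, at 580 ± 49.0 in MI and 528 ± 120 in Sham, followed by Thra at 176 ± 12.4 in MI and 173 ± 19.3 in Sham. Klf9 came next, at 28.7 ± 2.33 in MI and 27.0 ± 4.36 in Sham. Slco1c1, Thrb and Dio2 followed, with ranges over the 12 libraries of 9.92 to 12.7, 8.01 to 11.6 and 7.92 to 12.6 that overlap. Within a library Slco1c1 was above Thrb in 12 of 12 and above Dio2 in 11 of 12, and in MI its range of 11.7 to 12.7 lay above those of Thrb, 9.05 to 11.6, and Dio2, 8.02 to 10.5. Thrb was above Dio2 in 9 of 12 libraries, and these neighbours overlapped in both groups. Hr was lowest, at 2.58 ± 0.53 in MI and 2.19 ± 0.73 in Sham. The ranges of the other neighbours in this order do not overlap.

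**Figure D2:**
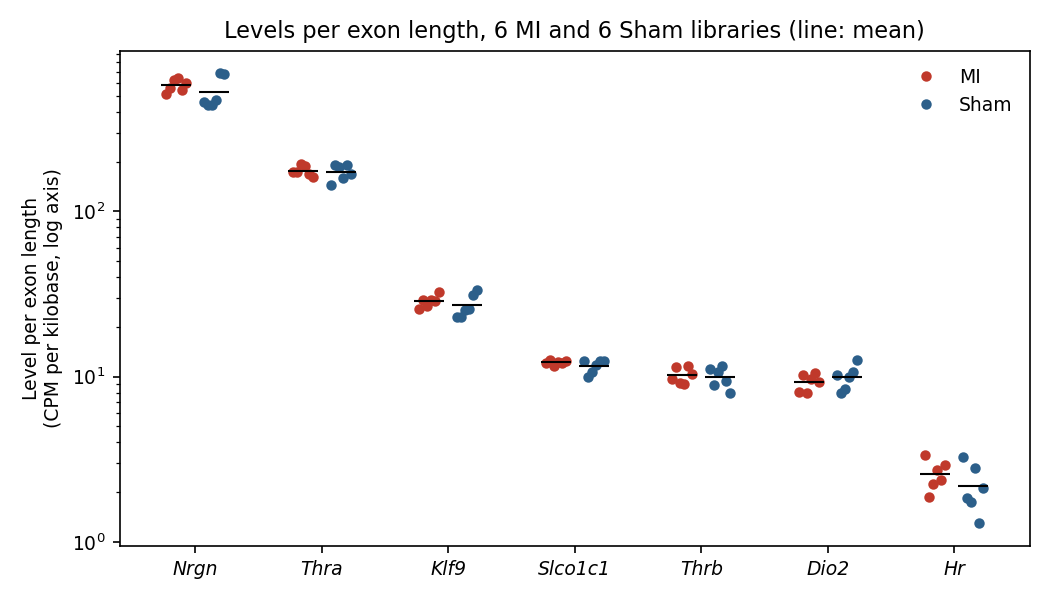
Level of each member per kilobase of exon (CPM per kilobase, log axis) in 6 MI libraries (red) and 6 Sham libraries (blue), with a line at each group mean. Nrgn lies between 438 and 685, Thra between 144 and 194, and Hr between 1.30 and 3.34, while Slco1c1, Thrb and Dio2 overlap.

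The members also differed in how far their levels spread. The coefficient of variation over libraries was higher in Sham than in MI for 7 of 7 members, as it was for 76.2% of all genes tested. It was 8.44% in MI and 22.6% in Sham for Nrgn, 2.74% in MI and 9.03% in Sham for Slco1c1, and 20.5% in MI and 33.5% in Sham for Hr. The same order over all genes had medians of 8.80% in MI and 13.0% in Sham. The biological coefficient of variation fitted by edgeR was 25.3% for Hr and 7.91% for Slco1c1, against a median of 11.3% over all genes.

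Across the 12 libraries Klf9 and Nrgn varied together. Of 21 pairs of members, this was the 1 whose correlation passed adjustment, with Pearson's r = 0.864 (permutation p = 0.00045, adjusted p = 0.00945) and Spearman's rho = 0.888 (permutation p = 0.00026, adjusted p = 0.00546). Leaving out the 2 libraries farthest from the median of Klf9, Sham 1 and Sham 6, gave r = 0.818, and subtracting group means gave 0.850. Within the libraries with Y-linked counts r was 0.856 and within those with Xist 0.911. Sham 1 to Sham 4 held the 4 lowest levels of Nrgn and Sham 5 and Sham 6 the 2 highest, with the MI libraries between them. The same split stood in the sums of meningeal markers, which were 250 to 417 CPM in Sham 1 to Sham 4 and 91.5 and 104 CPM in Sham 6 and Sham 5. Some other marker sums also moved with these genes. Sham 6 and MI 6, the libraries with the highest Klf9, held the highest sums of dentate granule cell markers, 1067 and 453 CPM, and the lowest of ependymal markers, 138 and 195 CPM. On average most of the ependymal sum was Crym. Sham 5 and Sham 6 held the highest sums of choroid plexus markers, 46.3 and 39.1 CPM, against 23.4 to 37.2 CPM in MI, and of 8 microglia markers, 421 and 434 CPM, against 336 to 408 CPM in MI. Only 4 of the 8 choroid plexus markers passed the filter. Within Sham, Ttr, 1 of these 4, followed the choroid plexus sum at both ends. It was lowest in Sham 1, at 0.83 CPM, where the sum was 12.6 CPM, and highest in Sham 5 and Sham 6, at 4.07 and 3.34 CPM. In MI it did not follow the sum: Ttr was highest in MI 1, at 6.60 CPM, where the sum was the lowest of MI. The sum of CA1 pyramidal neuron markers moved with Nrgn only in part. It was 1843 CPM in Sham 5, the highest library, but 1105 CPM in Sham 6, below every MI library (1169 to 1528 CPM). In Sham 1 and Sham 3 it was 656 and 1293 CPM. The part of any of these cells in the levels of Klf9 and Nrgn was not tested.

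**Figure D3:**
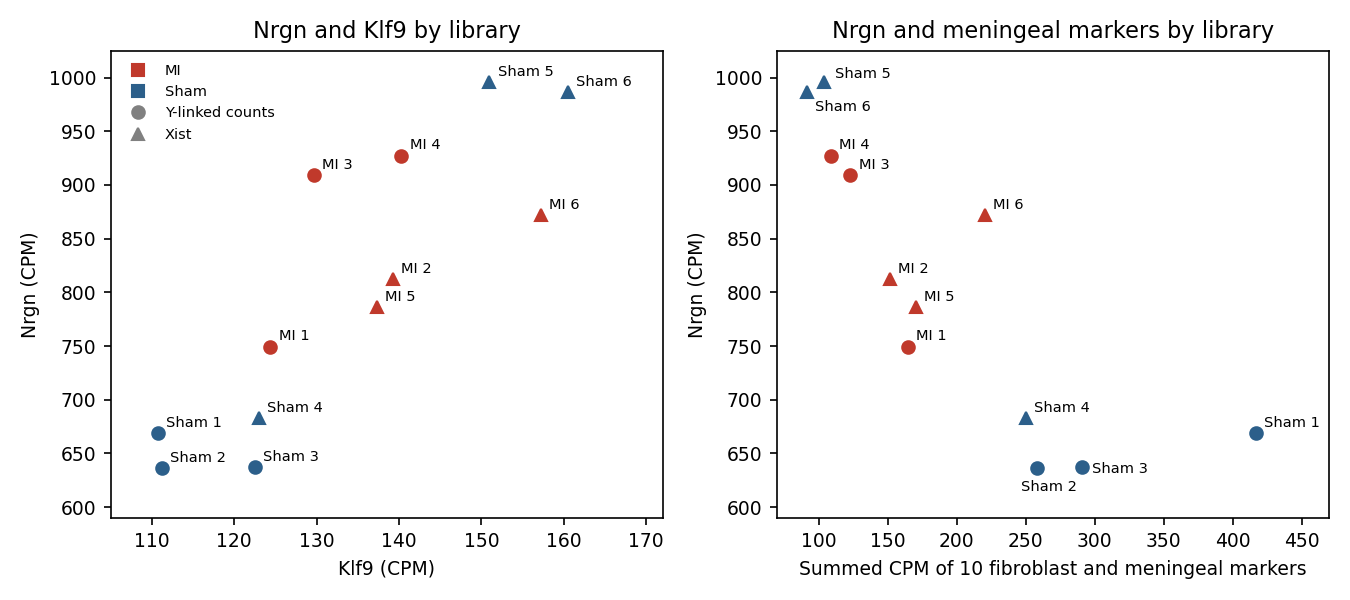
Left, level of Nrgn against level of Klf9, both in CPM, in 12 libraries (red MI, blue Sham, circles for libraries with Y-linked counts, triangles for libraries with Xist). Right, level of Nrgn in CPM against the summed CPM of 10 fibroblast and meningeal markers; Sham 1 to Sham 4 sit at 250 to 417 CPM of markers with Nrgn from 636 to 683 CPM, and Sham 5 and Sham 6 at 104 and 91.5 CPM with Nrgn at 996 and 986 CPM.

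Other pairs did not pass adjustment in the main test. Dio2 and Slco1c1 had r = 0.62 (adjusted p = 0.153 by permutation) and 0.81 with group means subtracted (adjusted p = 0.00924). Without Sham 2 and Sham 6, the libraries farthest from the median of Dio2, r was 0.55 (adjusted p = 0.426 by permutation). Within the libraries with Y-linked counts it was 0.61 and within those with Xist 0.11. Thra and Hr had r = -0.64 (adjusted p = 0.153 by permutation) and -0.74 with group means subtracted (adjusted p = 0.0461). Without MI 3 and Sham 1, the libraries farthest from the median of Thra, r was -0.62 (adjusted p = 0.408 by permutation). Within the libraries with Y-linked counts it was -0.68 and within those with Xist -0.98. Thra and Thrb had r = -0.51 (adjusted p = 0.262 by permutation).

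The genes whose levels ran most alike with each member over the 12 libraries were, among 12567 genes compared, Clptm1, Ap1m1 and Cpt1c for Thra, with r of 0.946, 0.945 and 0.943. For Thrb, Hdac4 and Dip2b were among them, with r of 0.873 and 0.870. For Dio2 they were Ccdc88a, Zfp207 and Sfpq, with r of 0.939, 0.939 and 0.929. The rule took the highest positive Pearson's r, which a few libraries far from the rest can carry. For Slco1c1 the genes were Smc6, Ephb2 and Zfp101, with r of 0.918, 0.917 and 0.909 but Spearman's rho of 0.664, 0.524 and 0.608. Slco1c1 itself was low in Sham 2 and Sham 3 and close together in the other libraries. For Klf9, Nebl and Thrap3 were among them, with r of 0.956 and 0.945. For Nrgn they were Zfp976, Tspan5 and Olfml2b, with r of 0.962, 0.959 and 0.954, and for Hr Tha1, Arg2 and Gls2, with r of 0.920, 0.910 and 0.883. These values are descriptions of 12 libraries that share 1 scaling, and they carry no test.

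Whether the MI difference of the members depended on the sex-linked kind of library was asked with an interaction term. It was called for 0 of 7 members, against 2 genes of 16829 (0.0119%). For Nrgn MI minus Sham was a log2 difference of 0.41 in libraries with Y-linked counts and -0.09 in libraries with Xist. In libraries with Y-linked counts MI 1, MI 3 and MI 4 held 749, 909 and 927 CPM, against 669, 636 and 637 CPM in Sham 1, Sham 2 and Sham 3, while with Xist MI 2, MI 5 and MI 6 held 812, 786 and 872 CPM, against 683, 996 and 986 CPM in Sham 4, Sham 5 and Sham 6. The difference of 0.52 (SE 0.18) had an adjusted p of 0.516 by edgeR, and 0.0490 without Sham 4, when 61 genes were called. Thrb had 0.22 in libraries with Xist and -0.13 in libraries with Y-linked counts, with an adjusted p of 0.612 for the difference. Within the libraries with Y-linked counts alone, 3 against 3, 0 of 7 members were called, against 1.26% of genes tested; Nrgn had a log2 fold change of 0.41 with an adjusted p of 0.0776.

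The rest of the pathway was taken from gene lists for transport and binding, deiodination and turnover of the Dio2 protein, receptor partners, and genes reported to be induced or repressed by triiodothyronine. None of the tested genes of these lists passed the edgeR test, in either direction. Of the genes named below, the authors' deposited tables list Mag and Mbp as higher in MI and Slc7a8 and Reln as lower. Their log2 fold changes there are 0.42, 0.45, -0.13 and -0.33, with the authors' adjusted p of 0.0351, 0.0292, 0.0217 and 0.0404. Of 9 genes of transport and binding, 6 had a positive and 3 a negative log2 fold change, with a median of 0.02. Ttr, the thyroxine-binding transthyretin of the choroid plexus, averaged 4.45 ± 1.67 CPM in MI and 2.54 ± 1.31 CPM in Sham, with a log2 fold change of 0.78 (SE 0.36) and an unadjusted edgeR p of 0.0525. The 8 choroid plexus markers, Ttr among them and 4 of them past the filter, summed to 23.4 to 37.2 CPM in MI and 12.6 to 46.3 CPM in Sham, and their part was not tested. Slc7a8, an amino acid carrier that also takes up thyroid hormone, had -0.11 (SE 0.07).

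Of 6 tested genes of deiodination and turnover, 1 had a positive and 5 a negative log2 fold change, with a median of -0.06. Dio3, which inactivates the hormone, ran from 2.94 to 5.54 CPM in MI, against 8.66 to 13.1 CPM in Sham 1 to Sham 4 and 2.95 and 0.66 CPM in Sham 5 and Sham 6. Its log2 fold change was -0.73 (SE 0.48) with an unadjusted p of 0.150 in edgeR. Dio3 thus split the Sham libraries as the meningeal markers did. The ubiquitin ligase gene March6 had -0.06 (SE 0.05) and the deubiquitinase gene Usp20 0.08 (SE 0.08). Dio1, the deiodinase of liver and kidney, did not pass the filter.

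Of 16 receptor partners and coregulators, 7 had a positive and 9 a negative log2 fold change, with a median of -0.02, and 0 had an unadjusted p under 0.05 in edgeR. The retinoid X receptor genes Rxra, Rxrb and Rxrg had 0.01, 0.04 and -0.16. The coactivator gene Ncoa2 had -0.06, and the corepressor complex genes Gps2 and Tbl1xr1 had 0.05 and -0.05.

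Of 17 genes reported to be induced, 11 had a positive and 6 a negative log2 fold change, with a median of 0.14, and 4 positive and 1 negative ones had an unadjusted p under 0.05 in edgeR. Mag and Mbp, myelin genes, had 0.53 (SE 0.16) and 0.55 (SE 0.17), each with an adjusted p of 0.597. The 10 oligodendrocyte markers, which include both, summed to 5271 to 6653 CPM in MI and 2863 to 5816 CPM in Sham, and 10 of 10 were positive, so that this cell type moved with the values; its part was not tested. Reln, a secreted guidance protein of Cajal-Retzius cells and interneurons, had -0.49 (SE 0.15). Of 7 genes reported to be repressed, 4 were positive and 3 negative, with a median of 0.02. Trh, which encodes the precursor of thyrotropin-releasing hormone, ran from 0.41 to 1.33 CPM in MI. In Sham it was 16.6, 23.0 and 18.0 CPM in Sham 1, Sham 2 and Sham 3, and 0.78, 0.41 and 0.19 CPM in Sham 4, Sham 5 and Sham 6. Its log2 fold change of -3.86 (SE 1.06) had an unadjusted p of 0.00304 and an adjusted p of 0.597 by edgeR, and 3 of the 6 Sham libraries carried it. Col6a1 and Col6a2, collagen genes, had -0.79 (SE 0.42) and -0.38 (SE 0.34), and 10 of 10 meningeal markers were negative, with a median of -0.83.

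**Figure D4:**
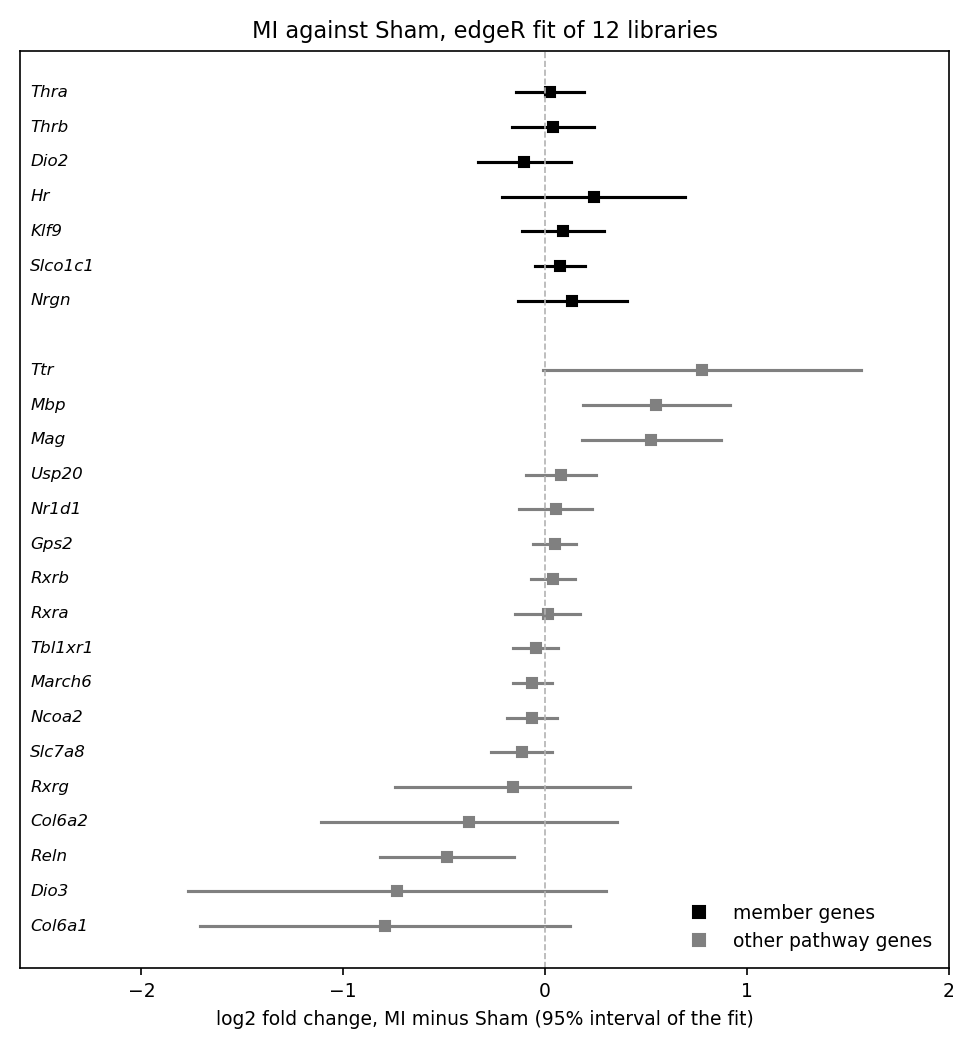
Log2 fold change, MI minus Sham, with the 95% interval of the edgeR fit (x axis) for the 7 members (black, top) and other pathway genes (grey, below); the dashed line marks 0, and Trh, at -3.86, is left out of the axis range. All 7 member intervals include 0, and the intervals of Reln, Mag and Mbp do not, none of these 3 having passed the test after adjustment.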

How the data were processed

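Polyadenylated RNA of 12 CA1 libraries (6 MI, 6 Sham) was read in single-end reads, 50 bases long, per the labels' protocols. The submitters' processing notes name mm10, Subread 1.5.1, featureCounts, STAR 2.5.2b and FastQC 0.11.5, but neither order nor settings. Per the deposited files, counts are whole numbers of reads for each Ensembl ID with no normalization. The authors also deposited a pair of tables, of genes higher and lower in MI, with log2 values per library, their log2 fold change and a p-value after adjustment, and the sources used here do not give how the authors made them.

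Symbols, coordinates and exon lengths came from GENCODE M21 for 48349 of 48709 IDs. Counts were tested with edgeR 4.0.16 (R 4.3.3): filterByExpr, TMM scaling and a two-sided quasi-likelihood F test with robust dispersion and no covariate, adjusted by Benjamini-Hochberg over all 16829 genes at a threshold of 0.05. Values are CPM. The prior count for log2 CPM was 2. Correlations used 100000 permutations, and ratios an exact test over 924 arrangements, whose smallest possible p is 0.0021645. Motifs were searched in RefSeq promoters of GRCm38.p6.

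The members, gene lists and named genes were chosen with earlier results of these data known. The genes named beside the members are Ttr, Dio3, the Rxr genes and Nr1d1, the 3 genes of smallest p in each pathway list and the 3 of highest Pearson's r with each member, among genes with a mean of at least 50 counts; some genes that this rule covers are not reported here. Y-linked or Xist libraries were told apart by which count was larger, and the labels give no sex. Alternatives were DESeq2, limma-voom with sample weights, other scalings and filters (at least 50 counts in at least 6 libraries, or none), a replicate block, sex-linked sets as covariate or alone, and leaving out libraries. Within the groups, 30 pairs of libraries were compared. The chi-square per degree of freedom between their counts ran from 5.76 to 71.3, so none of these pairs repeated the same library. Pairs across the groups were not compared, and the values do not tell whether libraries came from different animals. Scripts were tested on simulated data.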

Additional observations from a re-analysis of the deposited data

Results flagged for a closer look

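The log2 ratio of Dio2 to Slco1c1 was 0.19 in Sham 6, apart from the other 5 Sham libraries, which lay between -0.17 and -0.04. It was the 1 such library in 56 groups of values tested, and chance alone sets a library apart in about 5% of groups. Dio2 itself was highest in Sham 6, at 73.0 CPM.

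The MI difference of Trh was not alike in the 2 kinds of library: MI minus Sham was -4.80 on the log2 scale in libraries with Y-linked counts and 0.55 in libraries with Xist. The interaction was -5.51 (SE 0.68) with an adjusted p of 0.0476 by edgeR. The adjusted p passed the threshold no longer in 10 of the 12 fits that left out 1 library (each MI library, Sham 1, Sham 2, Sham 5 or Sham 6), where it ran up to 0.245.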

How the results depend on the processing

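Over 23 alternatives the count of members called was 0 each time. The log2 fold changes of the members gave 161 values, of which 151 kept their sign and side of the threshold. The other 10 changed sign, and none of these passed the threshold. The number of genes called over the whole table was 11 with DESeq2 and 211 when only libraries with Y-linked counts were fitted. With limma-voom the signs turned for Thrb (-0.00075), Dio2 (0.010), Rxra (-0.058) and Nr1d1 (-0.029). With only Y-linked libraries they turned for Thrb (-0.14) and Rxra (-0.035), and the ratio of Thrb to Thra became -0.23; there Mag (1.01), Mbp (1.06), Reln (-0.86) and Trh (-4.95) passed the threshold. In libraries with Xist alone they turned for Thra (-0.044), Nrgn (-0.11), Dio3 (0.024), Rxrb (-0.060), Rxrg (0.13), Usp20 (-0.058), Trh (0.59) and Col6a2 (0.20). Without Sham 1 and Sham 6 they turned for Thra (-0.045), Dio2 (0.00082) and Rxra (-0.035). Leaving out 1 library gave ranges of -0.025 to 0.054 for Thra, -0.016 to 0.088 for Thrb, 0.046 (without Sham 1) to 0.16 (without Sham 6) for Klf9, 0.086 (without Sham 2) to 0.22 (without Sham 5) for Nrgn, 0.033 (without Sham 2) to 0.093 (without Sham 1) for Slco1c1, -0.16 (without Sham 2) to -0.029 (without Sham 6) for Dio2, -1.005 (without Sham 6) to -0.46 (without Sham 1) for Col6a1, -0.55 (without Sham 5) to -0.17 (without Sham 1) for Col6a2, -0.033 to 0.054 for Rxra, -0.0071 to 0.11 for Nr1d1, -0.043 to 0.10 for the ratio of Thrb to Thra and -0.21 to -0.12 for that of Dio2 to Slco1c1. In the interaction, leaving out 1 library moved the count of genes called between 0 and 61 and the value of Hr between -0.23 and 0.41, and the stricter filter gave 0 genes. The count of correlated pairs was 3 with group means subtracted and 2 without the 2 farthest libraries. The cause of these changes was not tested.

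The labels do not say whether the replicate numbers pair the libraries. Deviations of same-numbered libraries correlated between -0.35 and 0.40, and 3 MI and 1 Sham libraries correlated best with their own number, which does not settle it. With the number as a replicate block 0 genes and 0 members were called; Hr had 0.28 with an unadjusted p of 0.0473 and an adjusted p of 0.759 by edgeR. The block changed no call. Hr, with the fewest counts of the members, had a fitted biological coefficient of variation of 25.3% and the widest interval.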
